A study of Mus musculus with 8 samples.

Results

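The miRNAs described here are the 5p arms numbered miR-6896-5p to miR-7093-5p, a block of late-numbered mouse miRNA entries of intron type, often called mirtron-like. They were taken by name alone, as every non-control miRNA on the array with an integer in this range and the ending -5p. This gave 196 of the 1881 miRNAs on the array. The block spans 198 numbers, and 6973 and 7036 are on the array only with a letter after the number, so they were not taken. Of the 196, 186 are read by 2 probes and 10 by 3 probes, 402 probes in all.

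The study measured miRNAs in the skin of male mice on 8 one-colour Agilent miRNA arrays, 4 labelled NcstnΔKC and 4 labelled normal. Mice of both groups had the genotype Ncstn flx/flx; Krt14 CreER+/-, that is, floxed alleles of nicastrin (Ncstn, a subunit of gamma-secretase) and a tamoxifen-activated Cre driven by the keratin 14 promoter, which is active in basal keratinocytes. From 8 weeks of age, NcstnΔKC mice were given tamoxifen by gavage, 20 mg per kg per day for 5 days and then every 10 days, while normal mice were given corn oil. Skin (described as lesions) was taken at 16 weeks. Every difference below therefore sets tamoxifen and the intended loss of Ncstn in keratinocytes, together, against corn oil, and both groups carry CreER. Ncstn mRNA is not on a miRNA array, so the deletion was not checked. The labels number the samples 1 to 4 in each group without saying that each is a separate mouse, so a p-value here reflects only how far these samples differ from one another, which may be technical.

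A miRNA is usually cut from a hairpin by Drosha in the nucleus and then by Dicer in the cytoplasm. A mirtron skips the Drosha step: the hairpin is a short intron, released by splicing and debranching, so its ends lie at splice sites, and Dicer alone cuts it. In a tailed mirtron only 1 end of the hairpin lies at a splice site. An intron starts with GU and ends with AG in nearly all genes, and mammalian mirtrons are known for a guanine-rich 5p arm and a pyrimidine-rich 3p arm. Their levels are low in most tissues.

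The RefSeq tables for mouse build GRCm38.p6 held a mature sequence for 172 of the 196 arms. All 172 lie within the span of a protein-coding gene, on that gene's strand in 151 and with the strand of the gene not given by the table in the other 21. The 33 of them detected in this skin lie on 16 chromosomes. These tables do not separate introns from exons, so the position within the gene is given only as its span. The hairpins had the end of an intron more often than its start. Of 167 hairpins with a sequence, 156 (93.4%) end with AG and 25 (15%) start with GU, against 8.72% and 6.05% of the 826 other mouse hairpins in the table. Both ends matched in 20 (12%), against 1.09% of the others. Among the 31 hairpins of arms detected in this skin, 30 (96.8%) end with AG and 6 start with GU. The median hairpin was 66 bases long, against 82 for the others.

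One hairpin of each kind is printed here because their 5p arms moved in opposite directions below. The arms are in capitals and the loop and flanks in lower case, 5′ to 3′. Mir6944 (minus strand, chr13:55477681-55477776, within Dbn1, which encodes the actin-binding protein drebrin) starts with GU and ends with AG. Mir7014 (minus strand, chr3:95734911-95734973, within Ecm1, which encodes extracellular matrix protein 1 of the dermis and epidermis) has a short flank before its 5p arm and ends with AG.
Mir6944: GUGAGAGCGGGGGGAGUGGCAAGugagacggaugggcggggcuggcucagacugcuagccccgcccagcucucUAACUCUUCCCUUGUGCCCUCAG
Mir7014: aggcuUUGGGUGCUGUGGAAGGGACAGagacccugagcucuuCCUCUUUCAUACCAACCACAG

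The mature sequences of 8 of the 9 5p arms that passed the test below are printed next, from RefSeq, with the seed (bases 2 to 8, which pair with target mRNAs) in capitals. The arms shown share no seed among themselves.
miR-7014-5p: uUGGGUGCuguggaagggacag
miR-6908-5p: uUGCCUGUcagggagagcccca
miR-6969-5p: cAGCAGAGuagggagcaaaaga
miR-6944-5p: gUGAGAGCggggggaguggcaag
miR-6965-5p: aGAGGGAGgcuauugggcaggaga
miR-6997-5p: uAACAGGCuggagaggugcaga
miR-7058-5p: uAGAGGGGaggugaccguggaagu
miR-7070-5p: gUGAGGGGagcugaggcagga

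Their positions, all on GRCm38.p6, are as follows. miR-7014-5p lies at chr3:95734947-95734968 on the minus strand within Ecm1. miR-6908-5p lies at chr10:78445131-78445152 on the minus strand within Pdxk, which encodes pyridoxal kinase. miR-6969-5p lies at chr17:28558475-28558496 on the minus strand within the span of Clps, the gene of pancreatic colipase, whose strand the table does not give. miR-6944-5p lies at chr13:55477754-55477776 on the minus strand within Dbn1. miR-6965-5p lies at chr17:24240919-24240942 on the minus strand within Ccnf, which encodes cyclin F. miR-6997-5p lies at chr2:29995955-29995976 on the plus strand within Sptan1, which encodes a spectrin of the membrane skeleton. miR-7058-5p lies at chr7:126368013-126368036 on the minus strand within Lat, which encodes an adaptor of T-cell receptor signalling. miR-7070-5p lies at chr8:85062086-85062106 on the plus strand within Fbxw9, an F-box protein gene. The mRNAs of these genes were not measured on these arrays.

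The 172 arms carried 151 distinct seeds, and 18 seeds were each carried by more than 1 arm. Among the arms detected in skin sharing was rare: 1 seed was shared, GAGGGAG, by miR-6965-5p and miR-7047-5p. miR-3103-5p, outside the block, has it too. The miR-7070-5p seed is also that of miR-6927-5p. The other arms printed above share theirs with no other miRNA on the array that has a RefSeq mature sequence. Array miRNAs without one were not compared. Probes can also share sequence. The probes of miR-6937-5p and miR-7047-5p hold the same 12 bases, CAGACCCAGCCC, opposite the 3′ part of both miRNAs, and those of miR-7082-5p and miR-7088-5p share 10 bases, TCCCCTCCTC. These 2 pairs are shown because their signals may not be separate measurements, and only the first pair has both arms in the test.
miR-6937-5p: uAGCUGUAagggcugggucugugu
miR-7047-5p: uGAGGGAGgagggcugggucuga

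In composition the block stood apart from the rest of the array. The median share of G was 43.5% in the 172 arms, against 26.1% in 1266 other miRNAs and 14.3% in 170 of the partner 3p arms of the same hairpins. The share of C was the other way round, with medians of 13.6%, 22.7% and 40.9%. The 33 arms detected in skin had a median of 50% G (range 31.8% to 66.7%), and the 139 never detected had 43.5% (range 13.0% to 63.6%). A run of GGGG occurred in 16 of the 33 detected arms (48.5%) and in 47 of the 139 others (33.8%). It occurred in 9.32% of the other miRNAs and in 1 of the partner 3p arms (0.588%). These shares describe the sequences, and whether base composition had a part in the signal of these probes was not tested.

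**Figure D1:**
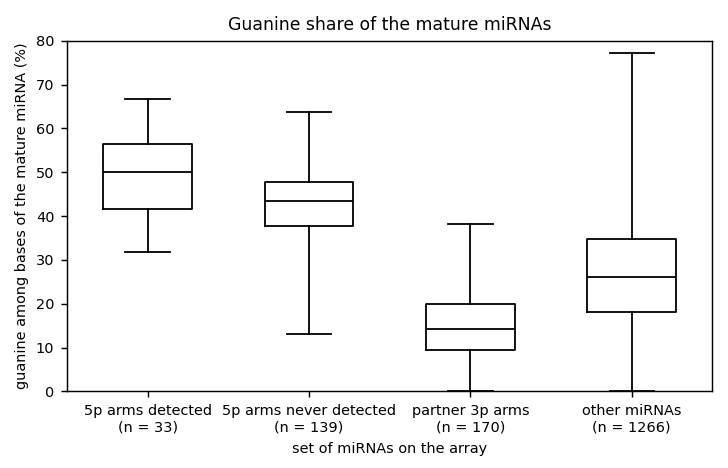
Share of guanine among the bases of each mature miRNA (y axis, percent) in 4 sets of miRNAs on the array (x axis), with boxes for the quartiles, a line for the median and whiskers to the lowest and highest values. The detected 5p arms have the highest median, 50%, and the partner 3p arms the lowest, 14.3%.

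A miRNA was counted as detected on an array where at least 1 of its probes had at least 50% of its spots well above background by the scanner software's flag. Of the 196 arms, 36 (18.4%) were detected on at least 1 array and 160 on none. For all 1881 miRNAs the share was 16.9%, and for the 1491 miRNAs outside the block 18.8%. Of the arms, 15 were detected on all 8 arrays, 21 on all 4 normal arrays and 16 on all 4 NcstnΔKC arrays. In contrast, none of the 194 partner 3p arms was detected on any array (0 of 194).

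Normal skin showed more of these arms than NcstnΔKC skin. The number detected was 30, 27, 25 and 25 on normal arrays 1 to 4 (26.8 ± 2.36, SD, n = 4) and 20, 17, 19 and 24 on NcstnΔKC arrays 1 to 4 (20.0 ± 2.94, SD, n = 4). The ranges did not overlap, nor by the scanner software's own detection call. They did overlap when every spot of a probe had to be well above background, with 21 on normal 3 and 22 on NcstnΔKC 4. Over the miRNAs outside the block, detection was also higher on normal arrays, at 15.1% ± 1.06 against 13.2% ± 0.962 (SD, n = 4 each), and the lowest normal array (14.1%) was below the highest NcstnΔKC array (14.4%). In the block the shares were 13.6% ± 1.21 and 10.2% ± 1.5. Of the 36 detected arms, 16 were detected on more normal than NcstnΔKC arrays, 2 on more NcstnΔKC arrays and 18 on equal numbers. Outside the block, 281 miRNAs were detected on any array. Of these, 87 were detected on more normal arrays and 29 on more NcstnΔKC arrays.

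Brightness differed between the groups as well, over all miRNAs. The value used to scale an array, the 75th percentile over the 301 probes detected on all 8 arrays, was 1259 ± 44.6 intensity units in normal and 1053 ± 98.3 in NcstnΔKC (SD, n = 4 each). The dimmest detected miRNA of an array averaged 42.7 ± 9.42 units in normal and 27.4 ± 9.65 in NcstnΔKC. No spot of any array was saturated (0 of 56430 miRNA spots). The 4 normal arrays share row 2 of the slide and the 4 NcstnΔKC arrays row 1, and the row cannot be told apart from the group.

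As a share of the summed signal of all detected miRNAs, the arms held little. The share was 2.13%, 1.78%, 1.22% and 1.30% on normal arrays 1 to 4 (1.61% ± 0.424, SD, n = 4) and 0.894%, 0.956%, 1.18% and 1.58% on NcstnΔKC arrays 1 to 4 (1.15% ± 0.311, SD, n = 4). The groups overlapped: NcstnΔKC 4 lay above normal 3 and normal 4. The brightest arm was miR-7047-5p, with a mean of 968 intensity units over the 8 arrays before scaling, followed by miR-6931-5p (866), miR-7042-5p (809), miR-7082-5p (563) and miR-6918-5p (392). Brightness depends on the probe as well as on the amount of miRNA, so this order is not one of abundance.

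**Figure D2:**
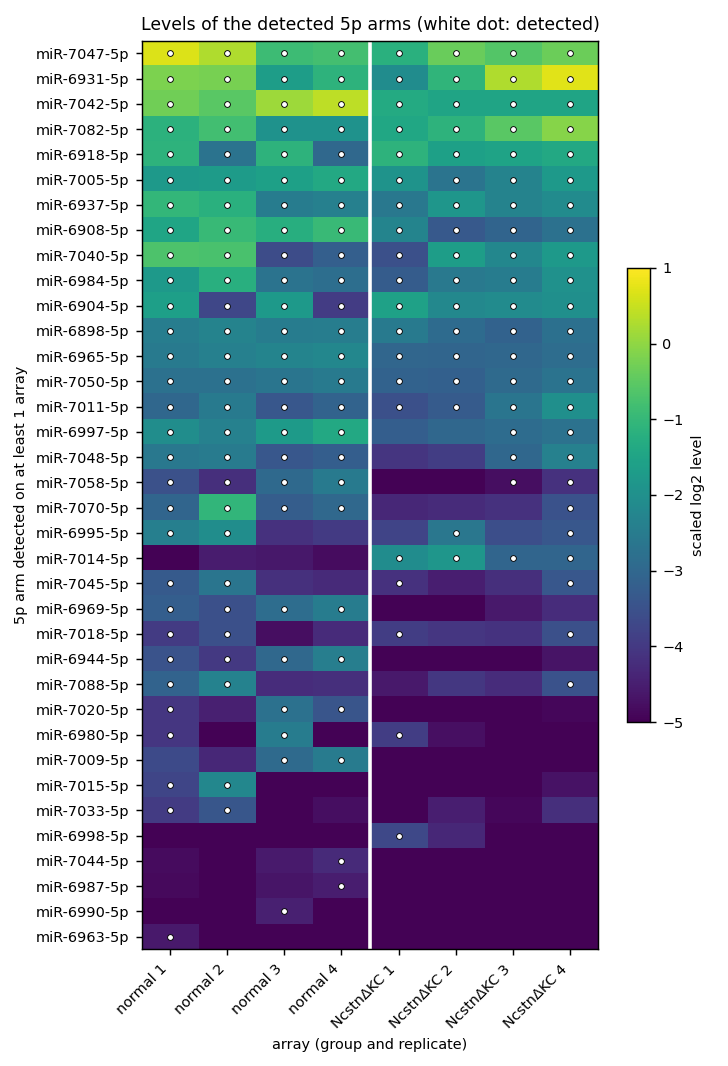
Scaled log2 level (colour, floor -4.97) of the 36 detected 5p arms (y axis) on each of the 8 arrays (x axis). Rows are ordered by the number of arrays on which the arm was detected, then by mean level. A white dot marks an array where the arm was detected. The upper rows are detected on all 8 arrays, and miR-7014-5p has dots only on the NcstnΔKC arrays.

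The change in NcstnΔKC skin was read on a log2 scale after the scaling above, with signals under a floor of -4.97 set to it. The floor was set from the dimmest detected miRNA of each array, as the median of these 8 values. The test covered the 222 miRNAs that every array of normal skin, of NcstnΔKC skin or of both detected. Of the 196 arms, 22 (11.2%) met this, against 13.4% of the miRNAs outside the block. An arm can meet it through the group where it is high alone, so counts over the 22 are descriptions. miR-7014-5p met it through the NcstnΔKC arrays alone. miR-6944-5p, miR-6969-5p, miR-6997-5p, miR-7048-5p, miR-7058-5p and miR-7070-5p met it through the normal arrays alone. The adjusted p of these arms has the same limit. With limma and Benjamini-Hochberg adjustment over all 222, 1 arm (miR-7014-5p) rose in NcstnΔKC skin, 8 fell and 13 did not pass an adjusted p of 0.05. Over all 222 tested miRNAs, 42.8% were called, 14.9% as higher and 27.9% as lower, so the 9 of 22 called arms (40.9%) lie near the background. The same holds for direction: 16 of the 22 differences were negative, against 63.1% of all tested. The median difference was -0.44 for the 22 arms and -0.23 for all 222 miRNAs.

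The count of falls differed with the scaling between arrays. With no scaling 11 arms were lower, with quantile normalization or cyclic loess 6, and with the 75th percentile taken over all probes 0, while miR-7014-5p was higher under each. That last setting moved the median of all 222 miRNAs by 0.87 upward, to 0.64, and left 12 miRNAs higher and 0 lower in place of 33 higher and 62 lower. Quantile normalization gave 36 higher and 31 lower, cyclic loess 41 and 35, and no scaling 24 and 101. Relative to the median of all tested miRNAs, 16 of the 22 arms lay below it with either percentile and with no scaling, 15 with quantile normalization and 14 with cyclic loess.

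**Figure D3:**
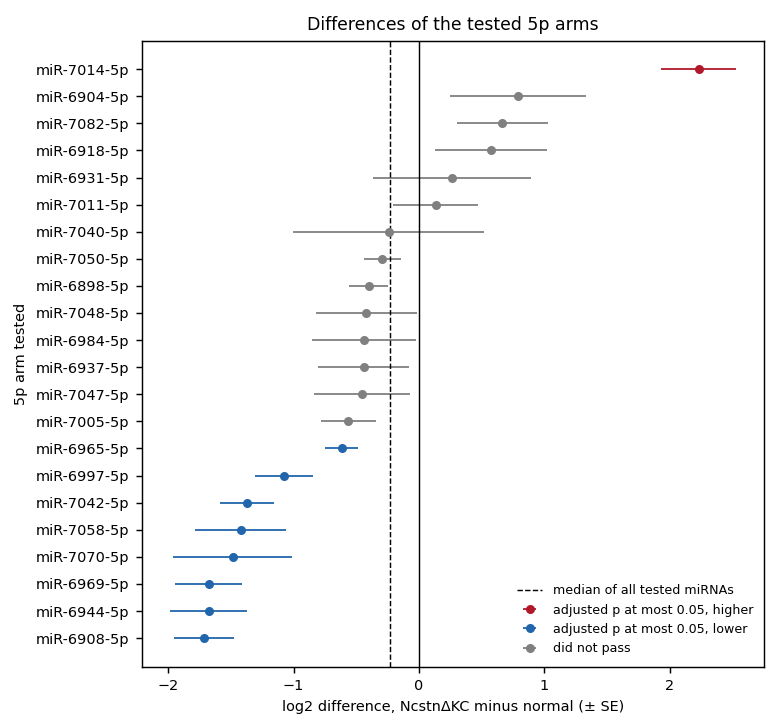
Log2 difference, NcstnΔKC minus normal, with its SE (x axis) for the 22 tested 5p arms (y axis), coloured by whether the adjusted p was at most 0.05, with a dashed line at the median of all 222 tested miRNAs. miR-7014-5p stands at 2.23 and the 8 arms that fell lie between -0.62 and -1.71. Of these 8, miR-6965-5p turns positive with a percentile over all probes and miR-6908-5p with the software's totals.

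miR-7014-5p, from Ecm1, was the arm that rose. Its levels on normal arrays 1 to 4 were -4.97, -4.54, -4.62 and -4.79, none of them well above background. On NcstnΔKC arrays 1 to 4 they were -2.08, -1.85, -3.05 and -3.03, all detected. The 4 NcstnΔKC arrays, through which alone the arm entered the test, were all above the 4 normal ones. NcstnΔKC 1 and 2 were the highest. The difference was 2.23 ± 0.30 (SE; limma, adjusted p = 0.00166). No normal array detected the arm, so the fold was taken against a stand-in level per normal array. This was the higher of that array's dimmest detected signal and the arm's own level. It gave a 4.50-fold rise, which is not a strict lower bound. Under other settings the difference of miR-7014-5p ran from 0.84 to 2.88. Both of its probes were detected, each on 4 arrays or more, and both pointed the same way.

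Of the 8 arms that fell, miR-6908-5p and miR-7042-5p were the brightest and were detected on all 8 arrays. miR-6908-5p, from Pdxk, read -1.47, -0.95, -1.23 and -0.93 on normal arrays 1 to 4 and -2.30, -3.32, -3.06 and -2.75 on NcstnΔKC arrays 1 to 4. The highest NcstnΔKC array was below the lowest normal one. The difference was -1.71 ± 0.24 (SE; limma, adjusted p = 0.00182), a 3.28-fold lower level. It turned to 0.55 (limma, adjusted p = 0.155) with the scanner software's own total signal per miRNA, so its direction depends on the signal used. In the scaled values its 2 probes pointed the same way, and the reason for the turn was not tested. The call was also lost with the percentile over all probes.

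miR-7042-5p read -0.31, -0.54, 0.11 and 0.40 on normal arrays 1 to 4 and -1.32, -1.50, -1.49 and -1.51 on NcstnΔKC arrays 1 to 4. The NcstnΔKC arrays were nearly level with each other (SD 0.089, n = 4) and the normal arrays more spread (SD 0.42, n = 4), with no overlap. The difference was -1.37 ± 0.21 (SE; limma, adjusted p = 0.00238), or 2.58-fold lower. The call was lost with the percentile over all probes and with no filter on dim miRNAs.

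The dimmer arms miR-6969-5p, miR-6944-5p and miR-7058-5p, were at or near the floor in NcstnΔKC skin. miR-6969-5p, from the span of Clps, read -3.20, -3.54, -2.85 and -2.47 on normal arrays and -4.97, -4.97, -4.58 and -4.24 on NcstnΔKC arrays. miR-6944-5p, from Dbn1, read -3.47, -4.0, -2.98 and -2.44 on normal arrays and -4.97, -4.97, -4.97 and -4.68 on NcstnΔKC arrays. Both were detected on all 4 normal arrays and on none of the NcstnΔKC arrays, and neither had overlapping groups. The fall of miR-6969-5p was 3.19-fold (difference -1.68 ± 0.27 SE, limma, adjusted p = 0.00272). That of miR-6944-5p was 3.2-fold (-1.68 ± 0.31 SE, limma, adjusted p = 0.00424). Both folds were taken as for miR-7014-5p and are not strict lower bounds. Across other settings each difference was as small as -0.36. The call for miR-6944-5p was lost under 5 of 24 other settings: the percentile over all probes, normexp, the software's totals, a doubled floor and no filter on dim miRNAs. That for miR-6969-5p was lost under 2 of 24, namely no filter and the percentile over all probes.

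miR-7058-5p, from the T-cell adaptor gene Lat, read -3.51, -4.20, -2.95 and -2.52 on normal arrays and -4.97, -4.97, -4.77 and -4.15 on NcstnΔKC arrays. It was detected on 4 normal and 2 NcstnΔKC arrays, and NcstnΔKC 4 lay just above normal 2, so the groups overlapped. The difference was -1.42 ± 0.36 (SE; limma, adjusted p = 0.0156), and the call was lost under 8 of 24 other settings, among them quantile normalization and cyclic loess.

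miR-6965-5p and miR-6997-5p changed by less, and neither had overlapping groups. miR-6965-5p, from Ccnf, read -2.55, -2.38, -2.30 and -2.22 on normal arrays and -3.02, -3.04, -3.01 and -2.86 on NcstnΔKC arrays. With this narrow spread a difference of -0.62 ± 0.13 (SE) passed the test (limma, adjusted p = 0.00718), or 1.53-fold lower. Among the 9 called arms it is the one whose direction turned with the scaling between arrays, since the percentile over all probes gave 0.25, and the call was also lost with cyclic loess and with normexp background correction. miR-6997-5p, from Sptan1, read -2.07, -2.37, -1.74 and -1.37 on normal arrays and -3.22, -3.0, -2.88 and -2.74 on NcstnΔKC arrays. It was detected on 4 normal and 2 NcstnΔKC arrays, and the difference was -1.08 ± 0.23 (SE; limma, adjusted p = 0.00736), or 2.11-fold lower with no overlap. The miR-6997-5p call was lost with the percentile over all probes, normexp and no filter.

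miR-7070-5p, from Fbxw9, had the least secure call. Its levels were -3.05, -1.05, -3.23 and -2.96 on normal arrays and -4.33, -4.27, -4.15 and -3.48 on NcstnΔKC arrays. Normal 2 stood far above the other normal arrays, and the arm was detected on 1 of the 4 NcstnΔKC arrays. The groups did not overlap, and the difference was -1.49 ± 0.47 (SE; limma, adjusted p = 0.0351). The call was lost under 13 of 25 other settings, among them leaving out normal 4 (adjusted p = 0.0525), NcstnΔKC 1 (0.0776), NcstnΔKC 2 (0.0878) or NcstnΔKC 3 (0.0863), each from limma.

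**Figure D4:**
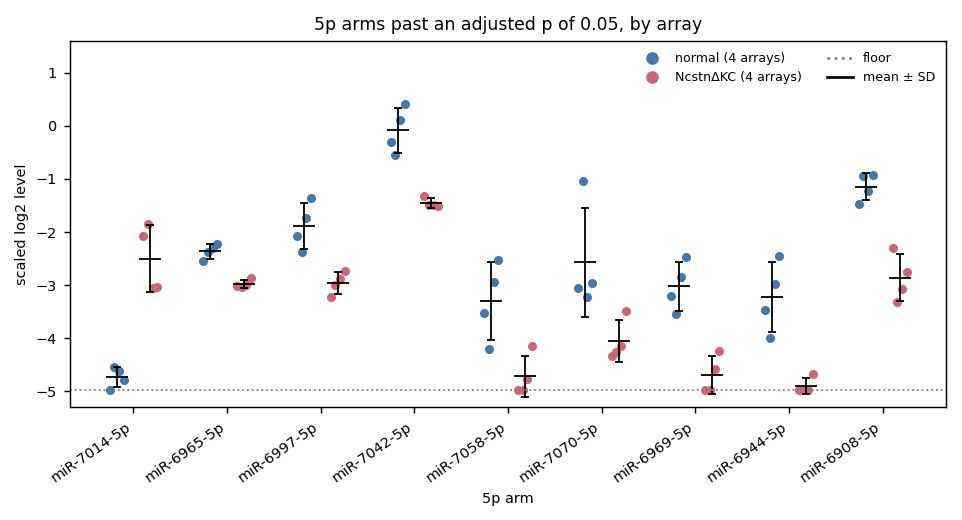
Scaled log2 level (y axis) on each array (points) of the 9 5p arms past an adjusted p of 0.05 (x axis), with the mean and SD of each group of 4 and the floor as a dotted line. miR-7014-5p is higher in NcstnΔKC, and the other 8 are lower in this scaling, with miR-7058-5p the arm whose groups overlap. miR-6965-5p turns positive with a percentile over all probes and miR-6908-5p with the software's totals.

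Arms that did not pass fell into tight and scattered ones. Among the tight ones, miR-6898-5p (from Kansl3) read -2.47, -2.33, -2.48 and -2.45 on normal arrays and -2.52, -2.91, -3.11 and -2.79 on NcstnΔKC arrays. miR-7005-5p, from the laminin gene Lama5, read -1.74, -1.70, -1.60 and -1.38 on normal arrays and -1.91, -2.69, -2.32 and -1.77 on NcstnΔKC arrays. Neither had overlapping groups, and both missed the threshold by little. The differences were -0.40 (limma, adjusted p = 0.0644) and -0.56 (0.0653). miR-6898-5p passed without NcstnΔKC 1 (-0.49, adjusted p = 0.0159) and miR-7005-5p without NcstnΔKC 4 (-0.70, 0.0440), both by limma. In each case the array left out was the NcstnΔKC array nearest the normal ones. Neither arm passed when any other array was left out, with limma adjusted p up to 0.189 for miR-6898-5p and 0.162 for miR-7005-5p. miR-7050-5p, from the ion transport regulator gene Fxyd5, lay between -2.77 and -2.53 on normal arrays and between -3.16 and -2.72 on NcstnΔKC arrays (difference -0.29, limma, adjusted p = 0.138). In all, 10 of the 22 arms (45.5%) had groups that did not overlap, 9 of them lower, against 36.9% of all tested miRNAs, 23.4% lower.

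The other 10 arms were scattered within groups, and 4 of the 5 brightest arms are among them. The median spread within groups (pooled SD) was 0.56 over the 22 arms and 0.31 over all 222 miRNAs. It was 0.62 over the 13 arms that did not pass and 0.41 over the 9 that did. The normal arrays had the wider spread, with a median SD of 0.52 against 0.27 for all tested miRNAs, and the NcstnΔKC arrays had 0.39 against 0.26.

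miR-6904-5p, from the DNA repair gene Parp1, read -1.62, -3.73, -1.77 and -3.92 on normal arrays 1 to 4 and -1.56, -2.20, -2.11 and -2.0 on NcstnΔKC arrays 1 to 4. miR-6918-5p, from the mitochondrial protein gene Nipsnap1, read -1.11, -2.72, -1.11 and -2.96 on normal arrays and -1.11, -1.59, -1.51 and -1.39 on NcstnΔKC arrays. Both were low on normal 2 and normal 4 and near the NcstnΔKC arrays on normal 1 and normal 3. Their differences, 0.79 (limma, adjusted p = 0.274) and 0.58 (0.325), did not pass. The 2 mature sequences differ in seed.
miR-6904-5p: uCCUGGGGuuagaguugagugg
miR-6918-5p: uGCUGAGGacgggauuagguucu

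Several others were high on normal 1 and normal 2 and low on normal 3 and normal 4. miR-7040-5p had the widest spread, at -0.68, -0.72, -3.61 and -3.19 on normal arrays and -3.53, -1.67, -2.21 and -1.76 on NcstnΔKC arrays (difference -0.24, limma, adjusted p = 0.784). miR-7047-5p read 0.69, 0.30, -0.89 and -0.78 on normal arrays and -1.19, -0.36, -0.60 and -0.35 on NcstnΔKC arrays (-0.46, 0.355). miR-6937-5p, from the span of Adi1, shares the 12 probe bases with miR-7047-5p. It read -1.03, -1.20, -2.47 and -2.39 on normal arrays and -2.59, -1.84, -2.31 and -2.12 on NcstnΔKC arrays (-0.44, 0.347). This pair followed the same order of high and low normal arrays. The order is not particular to the pair, since miR-7040-5p and miR-6931-5p, whose probes do not hold the 12 bases, had it too. Whether the shared bases had a part in the values of the pair was not tested. The NcstnΔKC values of miR-7040-5p, miR-7047-5p and miR-6937-5p lay within or close to the range of the normal ones.

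In a further set the NcstnΔKC arrays were scattered as well. Their SD was above that of the normal arrays for miR-6931-5p (1.29 against 0.72), miR-7048-5p (0.80 against 0.44) and miR-7011-5p (0.68 against 0.35). The 2 SDs were close for miR-7082-5p (0.60 against 0.57), and the NcstnΔKC one was lower for miR-6984-5p (0.54 against 0.77). miR-6931-5p, from Dcakd, read -0.19, -0.22, -1.66 and -1.12 on normal arrays and -2.09, -1.07, 0.28 and 0.73 on NcstnΔKC arrays (difference 0.26, limma, adjusted p = 0.732). miR-7082-5p, from the RNA-binding protein gene Raver1, read -1.14, -0.82, -1.94 and -1.95 on normal arrays and -1.43, -1.13, -0.54 and -0.10 on NcstnΔKC arrays (0.66, 0.173). NcstnΔKC 3 and NcstnΔKC 4 were the highest of all 8 arrays for both. miR-6984-5p (Mrpl21, a mitochondrial ribosome protein gene; -0.44, adjusted p = 0.401), miR-7048-5p (Dedd2; -0.42, 0.408) and miR-7011-5p (the semaphorin gene Sema4a; 0.13, 0.743) likewise had NcstnΔKC 4 as their highest NcstnΔKC array, by limma. Over the 8 arrays the levels of miR-6984-5p ran from -3.26 to -1.22, those of miR-7048-5p from -4.08 to -2.37 and those of miR-7011-5p from -3.53 to -2.01. All 22 tested arms had probes with differences of 1 sign, and 15 of them had 2 or more probes that were each detected on 4 arrays or more. Of the 9 called arms 4 did, and the calls of miR-6908-5p, miR-6944-5p, miR-6969-5p, miR-7058-5p and miR-7070-5p rest on 1 probe detected that often.

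**Figure D5:**
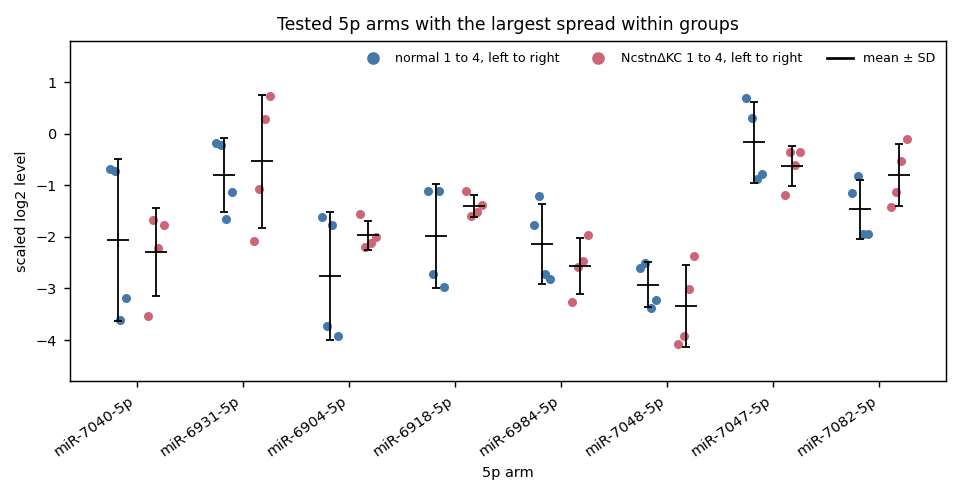
Scaled log2 level (y axis) of the 8 tested 5p arms with the widest spread within groups (x axis), with each group's arrays 1 to 4 from left to right and the mean and SD (n = 4). For miR-6904-5p and miR-6918-5p normal 2 and normal 4 lie low, and for miR-7040-5p normal 3 and normal 4 do.

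A further 14 arms were detected on too few arrays to be tested. miR-7020-5p, from the proline-breakdown gene Aldh4a1, was detected on 3 normal arrays and no NcstnΔKC array, and read -4.05, -4.48, -2.77 and -3.41 on the normal arrays. On the NcstnΔKC arrays miR-7020-5p was at the floor except for -4.89 on NcstnΔKC 4. miR-7009-5p (from the annexin gene Anxa5), miR-7015-5p and miR-7033-5p were each detected on 2 normal arrays and no NcstnΔKC array, and miR-7009-5p was at the floor on all 4 NcstnΔKC arrays. miR-6963-5p, miR-6987-5p, miR-6990-5p and miR-7044-5p were each detected on 1 normal array only, and miR-6998-5p on 1 NcstnΔKC array only. miR-6980-5p and miR-7088-5p were detected on 2 normal arrays and 1 NcstnΔKC array. miR-6995-5p, miR-7018-5p and miR-7045-5p were detected on 2 arrays of each group. By the scanner software's own detection call, 264 miRNAs and 27 of the arms could be tested. There miR-7020-5p was lower (-1.27, limma, adjusted p = 0.0205), where 39.8% of all tested miRNAs were called.

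With no filter on dim miRNAs, 3 of the 196 arms were called by limma, namely miR-6965-5p (adjusted p = 0.0432), miR-7014-5p (0.0496) and miR-6908-5p (0.0496), against 1.01% of all 1881 miRNAs. Mirtrons described earlier, with lower numbers, gave a similar picture of few detected arms. Of the 8 arms of miR-702, miR-877, miR-1224 and miR-1981 on the array, 2 were detected on any array. miR-1224-5p was bright on all 8, at 2.07 ± 0.19 in normal and 1.86 ± 0.40 in NcstnΔKC (SD, n = 4 each), with a difference of -0.22 ± 0.22 (SE; limma, adjusted p = 0.426). miR-877-5p was detected on 2 normal arrays.

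In bulk skin, fewer cells of a type and less of a miRNA per cell cannot be told apart. All 4 keratinocyte markers (miR-203-3p, miR-205-5p, miR-200b-3p and miR-429-3p) were detected on all 8 arrays, with 3 of the 4 lower in NcstnΔKC, and summed scaled levels of 19.9 to 24.0 in normal and 20.4 to 26.9 in NcstnΔKC. Of the 4 white blood cell markers 2 were higher, and their sum ran from 1.63 to 2.25 in normal and from 2.50 to 8.10 in NcstnΔKC. The 3 fibroblast and smooth muscle markers summed to 4.49 to 6.05 in normal and 6.86 to 10.3 in NcstnΔKC, with 1 higher and 1 lower. The 3 striated muscle markers, 1 of them lower, summed to 11.9 to 58.1 in normal and 4.32 to 25.8 in NcstnΔKC. Of the 2 red blood cell markers 1 was lower, with sums of 0.681 to 1.83 and 1.04 to 2.80. Of the 2 pigment cell markers, miR-204-5p was lower and miR-211-5p was detected on 1 array, with sums of 0.138 to 0.282 and 0.0637 to 0.0996. The single endothelial marker, miR-126a-3p, did not pass (2.34 to 3.03 and 2.70 to 3.29). The part of these markers in the values of the 5p arms was not tested.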

How the data were processed

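Skin RNA of 4 NcstnΔKC and 4 normal samples was labelled with Cy3 and hybridised to 1-colour miRNA arrays, per the labels' protocols. Per the file headers, Feature Extraction 10.7.1.1 read the images and gave background-subtracted intensity values per spot, not normalized between arrays, with mm9 as the build. The authors also deposited a matrix of log2 values per miRNA (column medians 3.24 to 3.25), whose normalization and centring are not given in the sources used here.

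From these files, control and outlier spots (2223 to 2940 per array) were left out. Each probe's mean intensity was scaled by that array's 75th percentile of the 301 probes detected on all 8 arrays, summed per miRNA, floored at 0.0318 and put on a log2 scale. The test was that of limma 3.58.1 under R 4.3.3 (lmFit on group, eBayes, two-sided), with Benjamini-Hochberg adjustment over 222 miRNAs at a threshold of 0.05. Where a group was undetected on all its arrays, the fold is taken against, per array, the higher of its lowest detected signal and the arm's own. The lowest detected signal is not a limit of detection. For example, miR-6997-5p was undetected at -3.22 and -3.0 on NcstnΔKC 1 and 2. Samples were not treated as paired by replicate number. Deviations of same-numbered samples correlated at -0.44, 0.20, -0.26 and -0.23 for numbers 1 to 4. Those of differently numbered samples ran from -0.44 to 0.59, so these 4 values cannot show whether the numbers pair samples. Every tested arm was named, and arms past the threshold were given on all 8 arrays. The number of arrays limits the precision. Scripts were tested on simulated data. The members, lists and alternatives were chosen with earlier results of these data known.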

Additional observations from a re-analysis of the deposited data

Results flagged for a closer look

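Within the groups of 4, 3 of 48 sets of values (22 tested arms, the number detected and the share of signal, in each group) had 1 array far from the other 3, by a gap over range above Dixon's critical value for 4 samples, a rule that chance meets in about 1 of 20 groups. For miR-7070-5p, normal 2 was the highest normal array at -1.05. For miR-7042-5p, NcstnΔKC 1 was the highest NcstnΔKC array at -1.32. For miR-6944-5p, NcstnΔKC 4 was the highest NcstnΔKC array at -4.68, with the other 3 at the floor.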

How the results depend on the processing

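Each of the 22 differences was recomputed under up to 25 alternatives: 474 of these values kept direction and side of the threshold, 36 kept direction and lost the call, 9 gained one and 26 changed sign. miR-7014-5p stayed higher and past the threshold in all 25 (0.84 to 2.88). Against 1 higher and 8 lower arms, array weights gave 3 higher and 10 lower, with miR-6931-5p and miR-7082-5p added as higher and miR-6898-5p and miR-7005-5p as lower. The number lower was 0 with the percentile over all probes, 3 with normexp, 4 with the software's totals, 5 with a doubled floor, 5 when all spots had to be detected and 2 with no filter. When all spots had to be detected, 17 arms were tested, and the 6 called arms still among them kept their calls. The other called arms left that test. With the replicate block the number lower was 7, with miR-7070-5p lost (limma, adjusted p = 0.0698) and no other call changed. Leaving out 1 array gave 1 higher and 7 to 9 lower. Mean numbers of detected arms became 23.5 and 17 (normal, NcstnΔKC) when all spots had to be detected, and 32.0 and 25.8 by the software's call. They ran from 25.7 to 27.3 and from 18.7 to 21.0 without 1 array. Shares of signal became 2.31% and 1.8% with normexp, and ran from 1.44% to 1.74% and from 1.01% to 1.24% without 1 array.

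Signs changed as follows. The percentile over all probes gave 0.25 for miR-6965-5p, 0.47 for miR-6898-5p, 0.31 for miR-7005-5p, 0.58 for miR-7050-5p, 0.43 for miR-6937-5p, 0.41 for miR-7047-5p, 0.43 for miR-6984-5p, 0.45 for miR-7048-5p and 0.63 for miR-7040-5p. The software's totals gave 0.55 for miR-6908-5p, 0.042 for miR-6937-5p and 1.15 for miR-7048-5p. Array weights gave 0.022 for miR-7047-5p, 0.10 for miR-6984-5p, 0.17 for miR-7048-5p and 0.78 for miR-7040-5p. Normexp gave 0.0034 for miR-7048-5p and no scaling -0.13 for miR-7011-5p. Without 1 array, miR-6931-5p ran from -0.16 (without NcstnΔKC 4; also negative without normal 3 or NcstnΔKC 3) to 0.79. miR-7011-5p ran from -0.15 (NcstnΔKC 4; also negative without normal 3) to 0.36, and miR-7040-5p from -0.77 to 0.22 (normal 1; also positive without normal 2 or NcstnΔKC 1). The cause was not tested.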
